A study of Mus musculus with 6 samples.

Results

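Collagens are the structural proteins of the extracellular matrix, and each collagen molecule is built from 3 chains, which are products of the same gene in some types and of different genes in others. The 10 genes described here encode chains of the fibrillar collagens I, III and V (Col1a1, Col1a2, Col3a1, Col5a1 and Col5a2), of the beaded-filament collagen VI (Col6a1, Col6a2 and Col6a3) and of the basement membrane collagen IV (Col4a1 and Col4a2). The list was chosen by family and with the measured fold changes of the contrast below already known, Col3a1 and Col6a2 having passed the threshold for a called gene in an earlier look at the same counts. Their differences between the groups are therefore a description and carry no test. All 10 were found among the 53465 genes of the table, and 8 of them were among the 14217 genes with enough counts to be fitted. Col5a2 and Col4a2 were not.

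The study sequenced poly(A)-selected RNA of EMT6, a carcinoma line of the mouse mammary gland, grown in culture, in 6 samples. PVITRO denotes the 3 samples labelled parental, whose cells received isotype control antibody, and PTRVITRO the 3 samples labelled resistant to anti-PD-L1, whose cells received anti-PD-L1, which blocks the ligand with which tumour cells restrain T cells. Exposure lasted over 4 weeks in both groups, with either antibody at 0.5 μg/ml. The study describes replicates as technical where it says nothing else and the labels name no separate cultures, so an adjusted p printed here measures the spread between libraries.

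Fibrillar collagens assemble into the load-bearing fibres of tissue, with type I as the main component, type III as a partner in the same fibres and type V as a minor chain that starts fibre assembly and limits fibre width. Type VI forms a beaded network around cells, and type IV forms the sheet on which epithelia and vessels rest. Fibroblasts make most fibrillar collagen in tumours, but carcinoma lines with mesenchymal traits also express these genes.

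The defining feature of a collagen chain is a glycine at every 3rd residue, which lets 3 chains wind into a helix. The coding stretches below open the longest unbroken run of such triplets in 5 of the chains, read from GENCODE M21 transcripts of the mouse genome build GRCm38, with the glycine codon (GGN) that opens each triplet in capitals and any other glycine codon in lower case. They are shown because the length of this run sets the fibrillar chains apart from those of types IV and VI.
Col1a1: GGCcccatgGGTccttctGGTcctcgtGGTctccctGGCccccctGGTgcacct
Col3a1: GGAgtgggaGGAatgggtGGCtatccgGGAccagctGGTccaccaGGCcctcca
Col5a1: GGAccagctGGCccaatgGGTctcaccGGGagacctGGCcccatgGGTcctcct
Col6a2: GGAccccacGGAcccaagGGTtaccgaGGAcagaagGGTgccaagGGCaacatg
Col4a1: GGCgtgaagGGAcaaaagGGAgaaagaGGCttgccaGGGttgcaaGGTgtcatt
The longest run held 338 triplets in Col1a1, 339 in Col1a2, 344 in Col3a1, 338 in Col5a1 and 339 in Col5a2. It held 87 triplets in Col6a1 and in Col6a2 and 45 in Col6a3, whose coding sequence of 9852 bases was the longest of the 10. In Col4a1 the longest run held 40 triplets and in Col4a2 66, and their triplets were divided among 16 and 22 runs of at least 5. The fibrillar chains thus carry a main helix that is long, the type VI chains a shorter one, and the type IV chains a helix divided among many runs.

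The total count per sample ran from 17757341 in PTRVITRO replicate 3 to 32426739 in PTRVITRO replicate 1. A count of 3, taken as the floor, corresponded to 0.0925 to 0.168 CPM (counts scaled to 1000000 per sample) across the samples and covers counting error only. Of the 14217 genes fitted with edgeR, 35 (0.246%) had an adjusted p below 0.05 and were called, 14 of them higher and 21 lower in PTRVITRO. Of 5 carcinoma or epithelial markers, 2 keratins were abundant, Krt8 at 1077 ± 48.7 CPM in PVITRO and 1086 ± 20.9 CPM in PTRVITRO (SD, n = 3) and Krt18 at 489 ± 14.6 CPM and 549 ± 23.1 CPM. Krt14 was at 8.76 ± 0.422 CPM and 7.33 ± 0.563 CPM, Epcam at 1.59 ± 0.306 CPM and 2.24 ± 0.149 CPM, and Cdh1, the epithelial cadherin, had a mean of at most 0.0138 CPM in either group. Krt18 and Epcam were higher in every PTRVITRO sample than in any PVITRO sample, beside 8.27% of all genes, the direction opposite to that of most collagen genes below. Epcam rested on counts of 30 to 70. Krt14 was lower in every PTRVITRO sample than in any PVITRO sample, beside 9.33% of all genes. None of the 4 fitted markers was called, and Cdh1 was not fitted. The summed level of the 5 ran from 1523 to 1645 CPM in PVITRO and from 1606 to 1687 CPM in PTRVITRO, and their part in the collagen values was not tested. Vim, the mesenchymal intermediate filament, was at 1889 ± 23.7 CPM and 1890 ± 71.4 CPM. Of 9 mesenchymal or fibroblast markers, Thy1 and Lum were at 0 in every sample and Fap and Dpt had means of at most 0.0235 CPM, and the summed level of the 9 ran from 2030 to 2086 CPM in PVITRO and from 1975 to 2124 CPM in PTRVITRO. Of 3 endothelial markers the summed level was at most 0.257 CPM in any sample, and of 5 leukocyte markers, with Ptprc and Adgre1 at 0, at most 0.0668 CPM.

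Of the 8 fitted collagen genes, 7 had a lower and 1 a higher fitted level in PTRVITRO, beside 51.5% of all genes with a log2 fold change below 0. Their median log2 fold change was -0.26 against -0.004 over all genes. In 6 of them every PTRVITRO sample lay below every PVITRO sample, as in 9.33% of all genes. Col3a1 and Col6a2 were the 2 called, both lower, beside 0.148% of all genes called lower. Neither was called when PVITRO replicate 1, PVITRO replicate 3, PTRVITRO replicate 2 or PTRVITRO replicate 3 was left out, where 8 to 12 genes were called in all, and their log2 fold changes kept their sign. These shares restate the contrast by which the genes were chosen, and nothing is read from them. The plot of levels by sample shows all 10 genes.

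**Figure D1:**
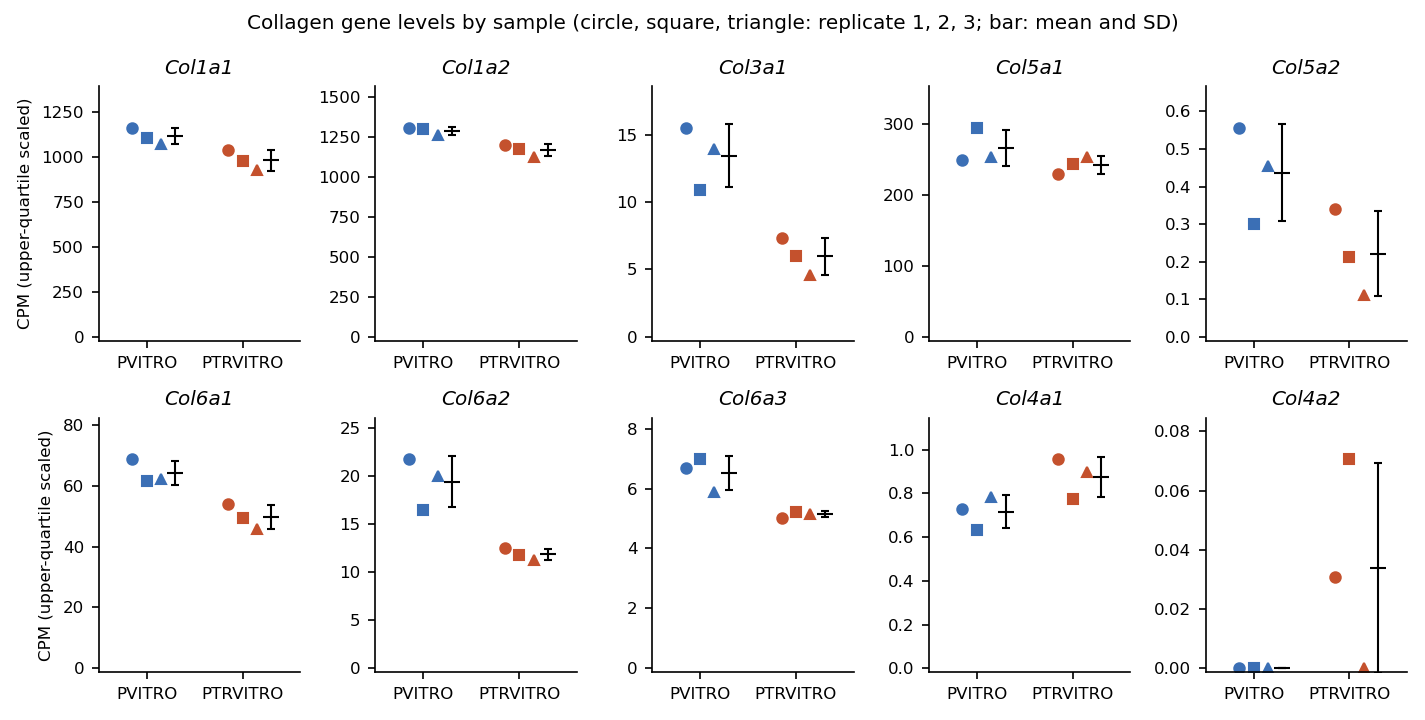
Level of the 10 collagen genes in CPM after upper-quartile scaling, each panel with its own linear axis from 0; points are samples (blue PVITRO, red PTRVITRO; circle, square and triangle for replicates 1, 2 and 3) and bars are mean and SD of 3. The groups lie apart in Col1a1, Col1a2, Col3a1, Col6a1, Col6a2 and Col6a3 and overlap in Col5a1, Col5a2, Col4a1 and Col4a2.

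Type I collagen was by far the most abundant of the families. Col1a2, which encodes the α2 chain, had 1308, 1300 and 1261 CPM in the PVITRO replicates and 1203, 1177 and 1128 CPM in the PTRVITRO replicates. Col1a1, which encodes the α1 chain present in 2 copies per molecule, had 1160, 1105 and 1072 CPM in PVITRO and 1037, 976 and 923 CPM in PTRVITRO. Both genes separated the groups, with every PTRVITRO sample below every PVITRO sample, beside 9.33% of all genes, though by a small step. The log2 fold change was -0.18 (SE 0.0448) for Col1a1, or 12% lower, and -0.14 (SE 0.0331) for Col1a2, or 9.3% lower. By mean CPM they ranked 61 (Col1a2) and 87 (Col1a1) of the 14217 genes, so these small relative steps were the largest absolute ones among the members, 1112.5 ± 44.0 CPM against 979 ± 56.8 CPM for Col1a1 and 1289 ± 25.01 CPM against 1169 ± 38.2 CPM for Col1a2. Col1a1 lies at chr11:94936224-94953042 and Col1a2 at chr6:4504814-4541544, both on the plus strand of GRCm38.

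Col3a1, the only gene of type III collagen, had the largest fold change of the 8 fitted genes. Its level was 15.5, 10.9 and 13.9 CPM in PVITRO and 7.31, 5.96 and 4.60 CPM in PTRVITRO, from counts of 327 to 362 in PVITRO and of 81.8 to 237 in PTRVITRO. The highest PTRVITRO sample stayed below the lowest PVITRO sample. The mean went from 13.4 ± 2.33 CPM to 5.96 ± 1.35 CPM (SD, n = 3), a log2 fold change of -1.13 (SE 0.162), which placed it 25th from the bottom among all genes. Because Col3a1 is a low-level gene here, at rank 9269 by mean CPM, its step in CPM was far smaller than that of the type I genes. Relative to Col1a1 and per length of merged exons, Col3a1 stood at 0.00806 ± 0.00127 in PVITRO and 0.00404 ± 0.000695 in PTRVITRO, and the 6 ratios did not overlap between the groups. This ratio holds Col3a1, whose fold change was known when the genes were chosen, so it restates the same contrast.

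Col3a1 lies at chr1:45311538-45349706 on the plus strand. The 250 bases before its RefSeq start site are shown with those before the upstream start of Col6a2, because these were the 2 called members. Capitals mark matches on either strand to 5 motifs: the core promoter motif TATAAA, the promoter motif CCAAT, the Sp1-type motif GGGCGG, the AP-1 motif TGACTCA and the SMAD motif CAGAC.
Col3a1 (chr1:45311288-45311537, plus strand, GRCm38.p6): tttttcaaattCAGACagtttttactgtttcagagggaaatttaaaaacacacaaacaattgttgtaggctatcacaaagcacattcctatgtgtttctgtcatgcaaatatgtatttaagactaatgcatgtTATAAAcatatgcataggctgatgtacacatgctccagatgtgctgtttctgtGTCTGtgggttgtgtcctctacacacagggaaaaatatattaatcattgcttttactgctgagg
Col6a2 (chr10:76623631-76623880, minus strand, GRCm38.p6): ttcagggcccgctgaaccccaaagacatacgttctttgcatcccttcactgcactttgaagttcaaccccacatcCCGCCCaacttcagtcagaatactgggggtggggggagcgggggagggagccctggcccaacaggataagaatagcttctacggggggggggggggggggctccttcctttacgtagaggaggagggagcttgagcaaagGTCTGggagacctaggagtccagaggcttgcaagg
The Col3a1 window was poor in G and C (35.2%) and held TATAAA 117 bases before the start and CAGAC on either strand, 239 and 64 bases before it. The Col6a2 window had 59.2% G and C and held the reverse complement of GGGCGG 175 bases and that of CAGAC 35 bases before the start. Over 32851 RefSeq windows of 250 bases, 12.4% held TATAAA, 33.8% CCAAT, 32.7% GGGCGG, 4.46% TGACTCA and 42.2% CAGAC, on either strand. A match describes the letters only. Promoter entries were found for 8 of the 10 genes, Col1a1 and Col5a2 being the others.

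Type V collagen was carried by 1 of its 2 listed chains. Col5a1, the α1 chain, had 248, 294 and 253 CPM in PVITRO and 228, 243 and 253 CPM in PTRVITRO. The groups overlapped, PVITRO replicate 2 alone standing well above the rest. The log2 fold change was -0.14 (SE 0.0625), from 265 ± 25.1 CPM to 242 ± 12.6 CPM, and -0.05 without PVITRO replicate 2. Col5a2, the α2 chain, had counts of 13, 9 and 11 in PVITRO and of 11, 6 and 2 in PTRVITRO, or 0.437 ± 0.129 CPM and 0.221 ± 0.114 CPM. Its groups overlapped, its last PTRVITRO sample was under the floor, and its difference was not tested. Per length, Col5a1 exceeded Col5a2 at least 504-fold in every sample by merged exons and 352-fold by the longest transcript, although type V molecules usually hold both chains. Col5a2 (chr1:45374321-45503282, minus strand) is the neighbour of Col3a1 with a gap of 24614 bases, and the pair differed in level per length by over an order of magnitude. Col5a1 lies at chr2:27886425-28039514, and its exons overlap those of 2 antisense genes by 99 and 113 bases. Its estimated counts were not whole in 6 of 6 samples, so some reads were divided between genes.

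The type VI genes, whose chains assemble together, were lower in PTRVITRO in all 3 cases without overlap, beside 9.33% of all genes. They were chosen with this contrast known. Col6a1, the α1 chain, had 68.8, 61.7 and 62.1 CPM in PVITRO and 53.97, 49.4 and 45.9 CPM in PTRVITRO. Col6a2, the α2 chain, had 21.7, 16.5 and 20.01 CPM in PVITRO and 12.5, 11.8 and 11.3 CPM in PTRVITRO. Col6a3, the long α3 chain, had 6.68, 6.98 and 5.87 CPM in PVITRO and 5.03, 5.22 and 5.16 CPM in PTRVITRO. The PTRVITRO samples of Col6a2 and Col6a3 lay close together, with an SD of 0.610 and 0.100 CPM, while PVITRO spread more, with an SD of 2.68 and 0.572 CPM. The log2 fold changes were -0.36 (SE 0.0634) for Col6a1, -0.70 (SE 0.101) for Col6a2 and -0.34 (SE 0.112) for Col6a3. Col6a2 lay just inside the threshold with an edgeR adjusted p of 0.0196, as did Col3a1, and Col6a1 lay just outside it at 0.0515. These 3 values state where the threshold fell and are not a test of the genes.

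The ratios of the type VI chains to each other separated the groups in 1 of 3 cases. Per length of merged exons, Col6a1 over Col6a2 was 6.34 ± 0.668 in PVITRO and 7.98 ± 0.239 in PTRVITRO, without overlap, whereas Col6a1 over Col6a3 was 27.1 ± 2.55 and 26.5 ± 2.58 and Col6a2 over Col6a3 was 4.32 ± 0.811 and 3.31 ± 0.227, both with overlap. The ratio that separated the groups holds Col6a2, whose fold change was known when the genes were chosen. Col6a1 (chr10:76708792-76726168) and Col6a2 (chr10:76595762-76623630) lie on the minus strand 85161 bases apart with 1 gene between them, and Col6a3 lies elsewhere, at chr1:90765923-90843971. The plot of fold changes shows that Col3a1 and Col6a2 stood below the other fitted members, and that no estimate changed sign when a sample was left out.

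**Figure D2:**
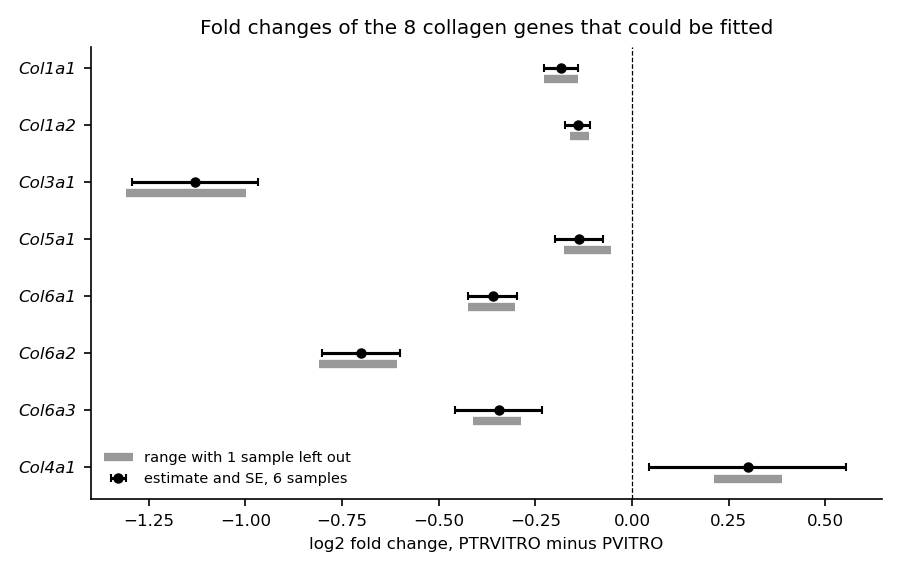
Log2 fold change of PTRVITRO over PVITRO for the 8 fitted collagen genes; points and thin bars are the estimate and its SE from 6 samples, grey bars the range of the estimate over 6 fits that each left out 1 sample. Col3a1 ranged from -1.31 to -1.0 and Col6a2 from -0.81 to -0.61, and Col4a1, at 0.21 to 0.39, was the 1 gene above 0.

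Col4a1 and Col4a2, the type IV genes described here, were barely detected. Col4a1 had counts of 17, 19 and 19 in PVITRO and of 31, 22 and 16 in PTRVITRO, or 0.728, 0.634 and 0.786 CPM and 0.956, 0.776 and 0.898 CPM. The groups overlapped and the log2 fold change was 0.30 (SE 0.254), not called. Col4a2 had counts of 0, 0 and 0 in PVITRO and of 1, 2 and 0 in PTRVITRO, all under the floor, so no fold is given. The 2 genes stand head to head on chromosome 8 (Col4a1 at chr8:11198423-11312826 on the minus strand, Col4a2 at chr8:11312805-11449287 on the plus strand), share 22 bases and have start sites 21 bases apart.

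Levels of different genes can be compared only per length, for which counts were divided by the merged exon length and scaled to the same total in every sample. On this scale the order over all 6 samples was Col1a1 (424), Col1a2 (263), Col5a1 (79.4), Col6a1 (34.6), Col6a2 (4.98), Col3a1 (2.62), Col6a3 (1.295), Col4a1 (0.284), Col5a2 (0.0908) and Col4a2 (0.00685). With the length of the longest transcript instead, Col1a2 (485) came before Col1a1 (372), and the other 8 kept their places. Every one of the 6 samples gave the same order by either length, so no 2 neighbours changed places within a sample, although over the groups 2 of the 3 PVITRO samples of Col3a1 reached above the lowest PTRVITRO sample of Col6a2. The ratio of Col1a1 to Col1a2 was 1.63 ± 0.0395 in PVITRO and 1.58 ± 0.0427 in PTRVITRO by merged exons, and 0.778 ± 0.0188 and 0.755 ± 0.0203 by the longest transcript, so the length used decides which chain is ahead. In neither case did the ratio separate the groups. Among chains outside the 10, Col18a1 (136) and Col8a1 (87.5) stood above Col5a1, and Col4a5 (34.2), an α5 chain of type IV, was at about the level of Col6a1 and far above Col4a1.

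**Figure D3:**
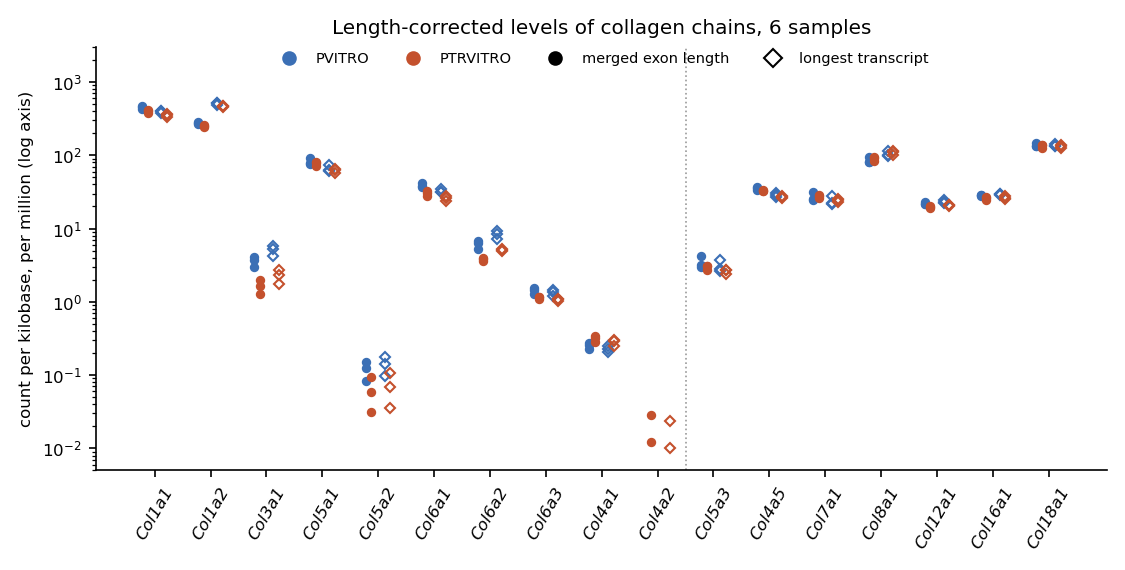
Level per length (count per kilobase of exon, scaled to the same total in every sample; log axis) of the 10 collagen genes and, right of the dotted line, of 7 other chains, 6 samples each in blue (PVITRO) and red (PTRVITRO), by merged exon length (circles) and by the longest transcript (diamonds); values of 0 are not drawn. Col1a1 and Col1a2 stand highest, at 424 and 263 by merged exons, and Col4a2 lowest at 0.00685.

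The deviations of the members from their group means, whose size also enters the SE and the calls of the contrast, were shared by some pairs and opposite in others. After the group mean of log2 CPM was subtracted, the Pearson correlation over 6 samples was above 0 in 18 of 28 pairs of fitted members and above 0.8 in 5. These were Col1a1 with Col1a2 (0.948) and with Col6a1 (0.964), Col1a2 with Col6a1 (0.846), and Col3a1 with Col6a1 (0.912) and with Col6a2 (0.849). The other 10 pairs were below 0, among them Col5a1 with Col3a1 (-0.912), Col6a2 (-0.969) and Col6a1 (-0.72) and Col6a3 with Col4a1 (-0.75). The points share their libraries and only 4 deviations are free, so these are descriptions. In PTRVITRO, Col1a1, Col1a2, Col3a1, Col5a2, Col6a1 and Col6a2 all had their lowest value in replicate 3, which was the shallowest library, and their highest in replicate 1, which was the deepest. In PVITRO the same 6 genes were also highest in replicate 1, which was the shallowest library of that group, so the order by depth was not the same in both groups. The part of depth in this was not tested. The within-group deviations are drawn by gene and sample.

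**Figure D4:**
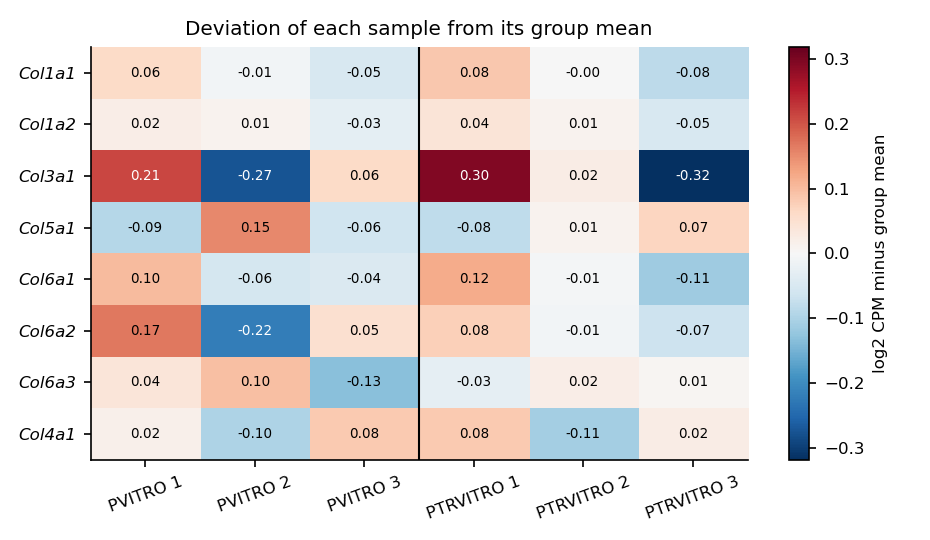
Deviation of each sample from the mean of its own group in log2 CPM, for the 8 fitted collagen genes (rows) and 6 samples (columns), with the value in each cell. Col3a1 ran from -0.32 in PTRVITRO replicate 3 to 0.30 in PTRVITRO replicate 1, and Col5a1 had its sign opposite to that of Col3a1 in every sample of PVITRO.

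Genes outside the collagens whose log2 CPM over the 6 samples was most like that of Col3a1 were Rpl18-ps1, Siah1a, Txnip, Fasn and Igfbp4, with Pearson correlations of 0.996, 0.996, 0.994, 0.993 and 0.992. Those most like the mean of the fitted members were Plekha6, Bcat2, Ctsh, Arfgap3 and Rnaset2a, at 0.991 to 0.995. Rpl18-ps1 is a pseudogene of a ribosomal protein gene, so its reads may be shared with that gene. These likenesses include the step between the groups.

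The other genes of collagen biology were compared through 9 lists of 126 genes in all, of which 86 were fitted. The lists were written with earlier results of these data known, so the shares and p-values below are a description. In the fit over all genes none of the 86 was called higher and 1 was called lower, a share of 1.16% beside 0.246% of all genes called in either direction and 0.148% called lower. At an unadjusted edgeR p below 0.05 in either direction there were 25 of the 86, beside 11.4% of all genes in either direction. Of the 25, 23 were lower, and the share of all genes lower at that p was not computed. Of the 86 genes 66 had a log2 fold change below 0, beside 51.5% of all genes, and their median was -0.08 against -0.004 over all genes. The single called gene was Thbs2, which encodes thrombospondin 2, a matrix protein that binds to growing collagen fibres and to proteases. It had 63.5, 63.5 and 62.9 CPM in PVITRO and 49.9, 50.2 and 48.9 CPM in PTRVITRO, without overlap and with little spread, and fell by 0.35 on the log2 scale (SE 0.0385, edgeR adjusted p 0.00529).

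Among the 34 other collagen chains, 14 were fitted and none was called. Their median log2 fold change was -0.17, 11 were below 0 and 3 above. The highest by CPM were Col18a1, a basement membrane collagen, at 366 ± 10.8 CPM and 351 ± 14.6 CPM, Col8a1, a short-chain collagen, at 253 ± 19.0 CPM and 262 ± 13.5 CPM, and Col12a1, a fibre-associated collagen, at 128 ± 4.17 CPM and 113 ± 1.10 CPM in PVITRO and PTRVITRO. In Col11a2, Col4a5, Col12a1, Col16a1 and Col27a1 every PTRVITRO sample lay below every PVITRO sample, 5 of the 14, beside 9.33% of all genes. Of the 34, 5 were at 0 in every sample.

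Of the enzymes and chaperones that modify and fold collagen in the endoplasmic reticulum, 19 were fitted and 16 were below 0, with a median of -0.08 and none called. In 5 of the 19 every PTRVITRO sample lay below every PVITRO sample, beside 9.33% of all genes. The values farthest below 0 were those of P3h2, a prolyl 3-hydroxylase, at -0.61 (SE 0.171) and of P4ha3, a subunit of prolyl 4-hydroxylase, at -0.48, both genes at under 4 CPM and without overlap. Serpinh1, the collagen chaperone HSP47, had 1151 ± 27.7 CPM and 1086 ± 14.3 CPM, P4hb, the other subunit of that enzyme, had 809 ± 33.9 CPM and 745 ± 49.96 CPM, and Ppib, a prolyl isomerase, had 254 ± 10.8 CPM and 249.2 ± 8.50 CPM. Of the genes that cut procollagen 4 were fitted, 3 below 0 and none called, with Pcolce, an enhancer of that cut, at 251 ± 20.1 CPM and 241 ± 20.2 CPM, Bmp1, the protease, at 40.4 ± 1.66 CPM and 37.5 ± 2.64 CPM, and Pcolce2 at 24.6 ± 0.332 CPM and 25.3 ± 1.18 CPM. Of 7 cross-linking genes 6 were below 0 (median -0.09) and none was called. In 3 of the 7 every PTRVITRO sample lay below every PVITRO sample, beside 9.33% of all genes. Farthest below 0 was Loxl1, a gene at under 4 CPM, at -0.72 (SE 0.205) without overlap. Highest by CPM was Loxl4 at 379 ± 34.0 CPM and 316 ± 24.4 CPM without overlap, which was called by DESeq2 and with no filter on low counts. Tgm2 had 288 ± 10.04 CPM and 282 ± 6.85 CPM, and Lox 89.2 ± 3.53 CPM and 87.2 ± 6.502 CPM.

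Matrix proteins that bind collagen had the lowest median of the 9 lists, -0.26, with 5 of 6 fitted genes below 0 and Thbs2 called. Fn1, which encodes fibronectin, had 6645 ± 471.1 CPM and 5866 ± 315 CPM, and Sparc had 1125 ± 29.6 CPM and 1041 ± 29.3 CPM, without overlap in either gene. Basement membrane partners had a median of 0.003, with 5 of 10 below 0 and none called. Lamb1 had 405 ± 26.7 CPM and 417 ± 33.6 CPM, Lama5 339 ± 28.6 CPM and 313 ± 17.7 CPM, and Hspg2, which encodes perlecan, 265 ± 22.3 CPM and 244 ± 21.7 CPM.

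Collagen receptors had a median of -0.03 with 4 of 6 below 0 and none called, with Itgb1, the β1 integrin chain, at 746 ± 11.7 CPM and 716 ± 21.1 CPM, Ddr2, a receptor kinase for fibrillar collagen, at 668 ± 21.8 CPM and 679 ± 14.8 CPM, and Ddr1 at 39.5 ± 3.603 CPM and 39.9 ± 0.583 CPM. Proteases and their inhibitors had a median of -0.12 with 6 of 7 below 0 and none called, with Timp1 at 362 ± 17.3 CPM and 397 ± 25.4 CPM, Timp2 at 268 ± 11.7 CPM and 246 ± 14.2 CPM, and Mmp14, a membrane collagenase, at 102 ± 3.54 CPM and 93.6 ± 3.67 CPM. In the TGF-β route, a main inducer of collagen genes, 10 of 13 genes were below 0 (median -0.05) and none was called. Every PTRVITRO sample lay below every PVITRO sample in 4 of them and above in 2, beside 9.33% and 8.27% of all genes. The ligand gene Tgfb2 had the value farthest from 0, -0.48 (SE 0.0882, edgeR adjusted p 0.0585), from 12.6 ± 1.10 CPM to 9.07 ± 0.292 CPM without overlap, and it was called by DESeq2 and with no filter on low counts. Ltbp1, which stores latent TGF-β in the matrix, had 450 ± 41.6 CPM and 440 ± 43.3 CPM, the receptor gene Tgfbr2 308 ± 14.7 CPM and 286 ± 3.16 CPM, and the target gene Ccn2 257 ± 20.4 CPM and 226 ± 10.7 CPM. The plot of list members shows Col3a1 farther from 0 than any gene of the lists.

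**Figure D5:**
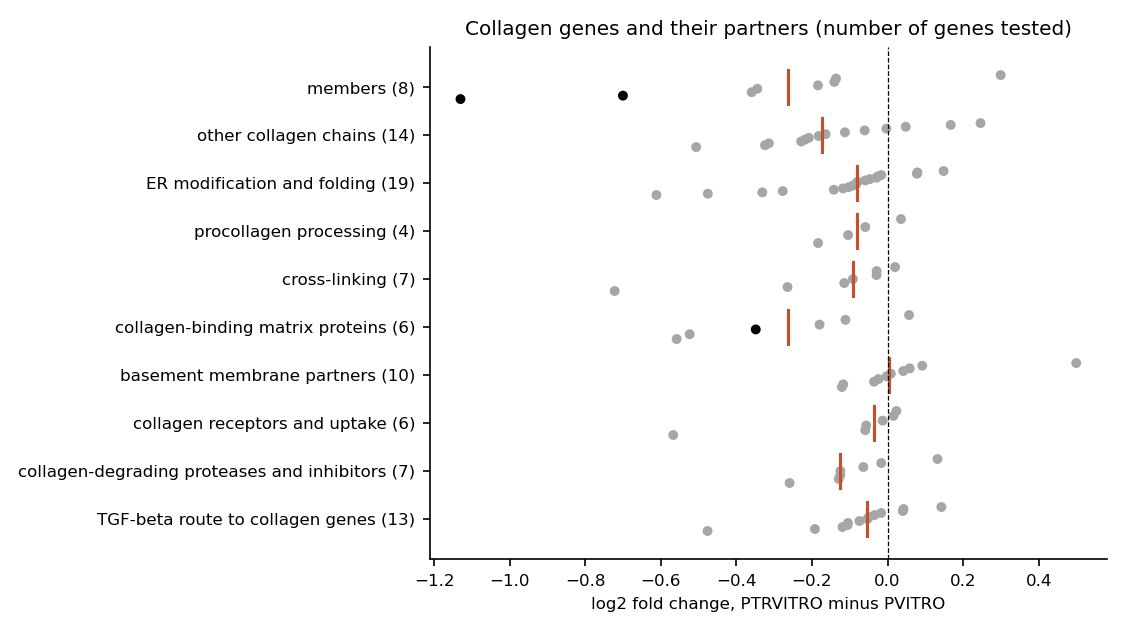
Log2 fold change of PTRVITRO over PVITRO for the fitted genes of the collagen families described here (top row, "members") and of 9 lists; each point is a gene, black where its adjusted p was below 0.05, and the red bar is the median. Thbs2 is the single black point outside the top row, and the medians of the lists lie between -0.26 and 0.003.

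Among the markers given above, Dcn, a fibroblast marker that also encodes a collagen-binding proteoglycan, had 42.2 ± 5.78 CPM in PVITRO and 28.2 ± 4.72 CPM in PTRVITRO, without overlap. It was not called in the fit over all 6 samples, but was called by DESeq2, with no filter on low counts, with a replicate block, without PVITRO replicate 2 and without PTRVITRO replicate 1. Pdgfrb had 81.1 ± 2.49 CPM and 75.8 ± 1.34 CPM, also without overlap, and Pdgfra had 8.42 ± 1.17 CPM and 9.07 ± 0.896 CPM. The part of any change in the makeup of the cultures in the collagen levels was not tested, and in bulk RNA fewer expressing cells and less RNA per cell cannot be told apart.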

How the data were processed

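RNA of the 6 samples was made into stranded polyadenylated libraries. The submitters' processing notes name FastQC 0.11.5, STAR 2.6.0a, RSEM 1.3.1 and GRCm38, and the authors deposited a table of estimated counts per gene (RSEM expected counts), not scaled between samples. Whether RSEM was told the strand is not given in the sources used here. Estimated counts were rounded to whole numbers, and genes were kept by filterByExpr (minimum count 10, minimum total 15). PTRVITRO and PVITRO, 3 samples each, were compared with the quasi-likelihood test of edgeR 4.0.16 (R 4.3.3) with upper-quartile scaling, group as the only term and Benjamini-Hochberg adjustment over 14217 genes, called at an adjusted p below 0.05. The code was tested on simulated data. Symbols and lengths came from GENCODE M21, which held 53360 of 53465 identifiers, and start-site windows from RefSeq (GRCm38.p6). All 10 collagen genes were named, and of each list the called genes, the 3 highest by CPM and, for likeness, the 5 highest correlations. Other genes, such as Dcn, P3h2, P4ha3, Loxl1, Tgfb2, Col5a3 and the chains without overlap, were named after their values were seen. Members and lists were chosen with earlier results of these data known. The alternatives were TMM or no scaling, DESeq2 1.42.0, limma-voom (limma 3.58.1), other filters, a replicate block, leaving out each sample, and another gene length.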

Additional observations from a re-analysis of the deposited data

How the results depend on the processing

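The fold changes of the 8 fitted collagen genes kept their direction in all 56 values from other settings and in all 48 with 1 sample left out. Counts of calls moved more. Against 35 genes, 2 collagen genes and 1 list gene called, DESeq2 called 111, 4 and 4, no filter on low counts 400, 5 and 8, and a filter of 10 counts in every sample 54 genes. TMM and that filter each called 3 collagen genes, adding Col6a1. With a replicate block 68 genes, 4 collagen genes (Col1a1 and Col6a1 added) and 3 list genes were called. Over all fitted genes, deviations from the group mean correlated at 0.18, 0.09 and -0.04 between same-numbered samples. Samples of different numbers were not compared, so these values cannot tell whether the numbers pair the samples. With 1 sample left out, 8 to 64 genes, 0 to 4 collagen genes and 1 to 2 list genes were called. No collagen gene was called without PVITRO replicate 1, PVITRO replicate 3, PTRVITRO replicate 2 or PTRVITRO replicate 3, 3 were without PVITRO replicate 2 and 4 without PTRVITRO replicate 1, and genes called overall were then 11, 9, 12, 8, 64 and 46. Thbs2 was called in each of these fits. The cause was not tested. Levels per length moved by more than the SD with the longest transcript for Col1a1, Col1a2, Col5a1, Col6a1 and Col6a2. Depth limits Col5a2, Col4a1 and Col4a2, whose counts were at most 31.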
